A study of Mus musculus with 6 samples.

Results

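Glucose uptake, glycolysis and lactate transport were followed in the skin of mice with an activated YAP protein in the epidermis, through 34 genes read from a table of 26579 genes by their Ensembl identifiers. The genes encode 3 glucose carriers of class I, the enzymes and paralogs of glycolysis, and carriers of lactate. They also encode the kinases that act on fructose 6-phosphate and on pyruvate dehydrogenase, and the hypoxia factor HIF-1α. Skin of the dorsal neck was sequenced (RNA-Seq) from 3 female YAP2-5SA-∆C mice (the transgenic group) and 3 female wild type littermates, all at 33 days of age (P33). The transgene drives a mildly activated mutant of YAP, the growth-promoting effector of the Hippo pathway, in basal keratinocytes, where it thickens the epidermis, and no other allele or treatment is given for either group. Each library was made from a whole skin punch biopsy and so holds epidermis, hair follicles, dermis, fat and any muscle below them. The strain and the promoter of the transgene are not given in the sources used here. All 34 genes passed the filter of at least 1 CPM (a count scaled to library size) in at least 3 libraries, as did 15102 genes of the whole table, and total counts per library ranged from 11225705 to 19505036. The values below are CPM after TMM scaling, and an FDR is the Benjamini-Hochberg adjusted p-value of edgeR's quasi-likelihood test over the 15102 genes.

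Cells take up glucose down its gradient through carriers of the GLUT family, and hexokinases trap it by phosphorylation. Glycolysis then splits it into pyruvate, which either enters the mitochondria or is reduced to lactate and leaves the cell with a proton through the monocarboxylate carriers. Proliferating keratinocytes rely strongly on GLUT1 and glycolysis, whereas skeletal muscle uses its own isoforms of several of the enzymes. *Pfkm*, *Pgam2*, *Eno3* and *Slc2a4* are such genes of muscle, *Slc2a4* also being a gene of fat, and these 4 were kept apart from the other 30.

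The 34 genes were selected with results of this same contrast known, so their fold changes and FDRs describe these 6 libraries and support nothing about the pathway. Within that limit, the glucose carrier *Slc2a1* and the lactate carrier *Slc16a1* rose in YAP2-5SA-∆C skin, and they were the 2 genes of the 34 with an FDR below 0.05. No member was called lower. Over all genes tested, 1.44% were called higher and 0.464% lower at this threshold. The 3 YAP2-5SA-∆C libraries lay above all 3 wild type libraries for 15 of the 34 genes and below them for 1, and the groups overlapped for 18. Of all genes tested, 15.5% lay wholly above and 18.2% wholly below. The median log2 fold change was 0.26 over the 30 genes outside the muscle group, -0.68 over the 4 muscle isoforms and -0.01 over all genes tested. In the edgeR likelihood-ratio test 8 of the 34 had an FDR below 0.05, all higher, in voom 2 and in DESeq2 9. Those tests called 5.52%, 1.23% and 6.35% of all genes tested higher, and 10.4%, 1.65% and 10.5% in either direction. An unadjusted quasi-likelihood p-value under 0.05, a count given for some lists below, was found for 26.3% of all genes tested. The plot of all members by library shows these values side by side.

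**Figure D1:**
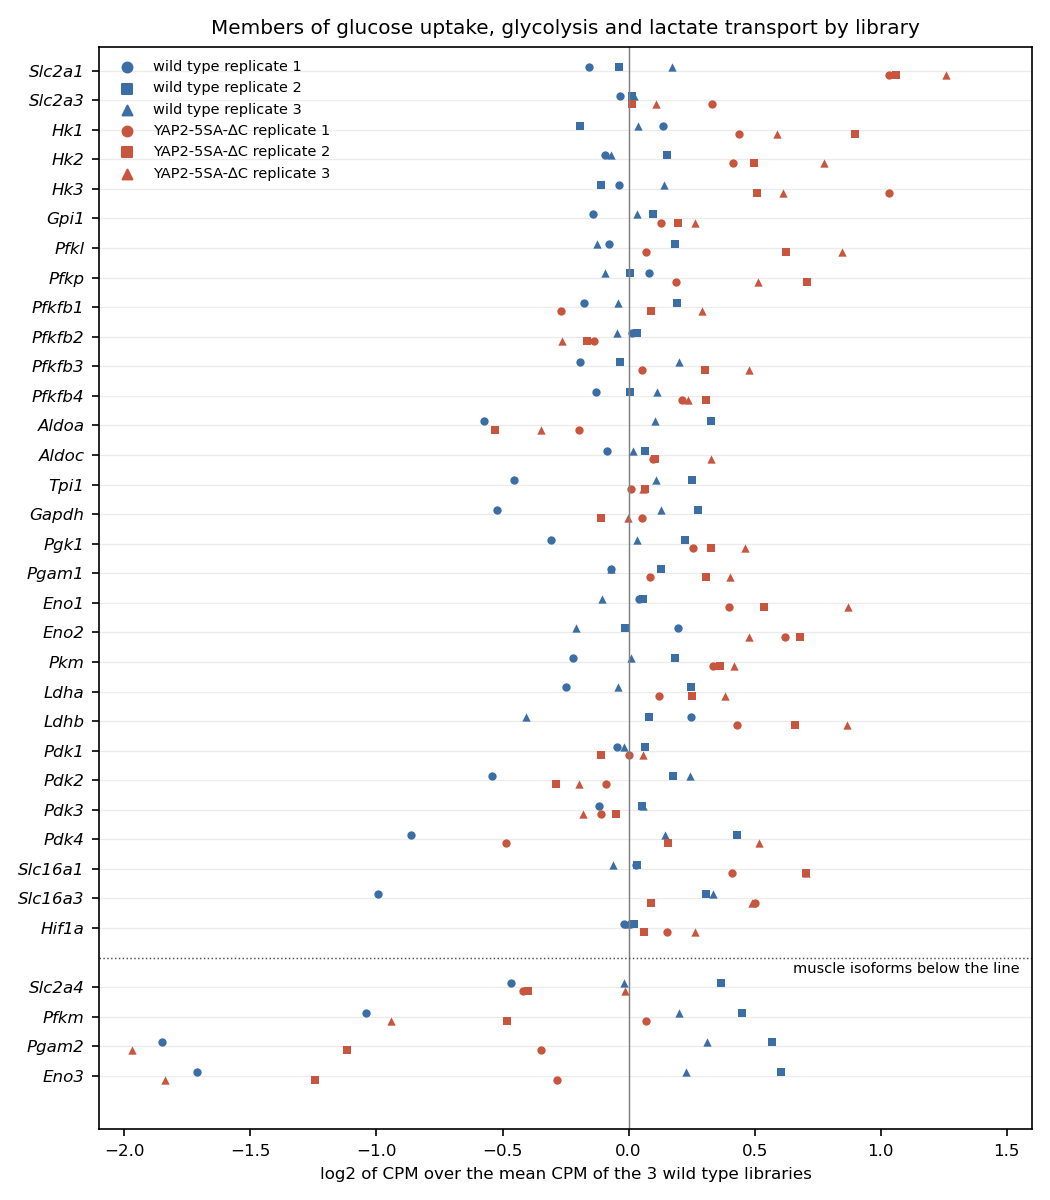
Each row is 1 of the 34 genes and each point 1 library, plotted as the log2 of its CPM over the mean CPM of the 3 wild type libraries (blue, wild type; red, YAP2-5SA-∆C; circles, squares and triangles, replicates 1, 2 and 3). The red points of *Slc2a1* sit furthest to the right of the blue ones, and the 4 muscle isoforms at the bottom spread widely within both groups.

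*Slc2a1* encodes GLUT1, the carrier for basal glucose uptake in many proliferating cells and in the epidermis (ENSMUSG00000028645, chr4:119108711-119137983 of GRCm38, plus strand). It had 23.5, 25.5 and 29.5 CPM in wild type replicates 1, 2 and 3, and 53.6, 54.6 and 62.5 CPM in the 3 YAP2-5SA-∆C libraries. Every YAP2-5SA-∆C library was thus well above the highest wild type library, and the spread within each group was small beside the gap. The mean rose from 26.2 ± 3.07 to 56.9 ± 4.91 CPM (SD, n = 3 each), 2.18-fold (log2 fold change 1.12, standard error 0.11, quasi-likelihood FDR 0.0194 in edgeR). The log2 fold change stayed between 1.05 and 1.22 in the 6 fits that each omit 1 library. The FDR was then between 0.00851 and 0.147, and the call was lost on leaving out wild type replicate 2 or 3 or transgenic replicate 3, fits in which 0 of all genes tested passed and 2725, 2844 and 3692 had an unadjusted p-value under 0.05.

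*Slc16a1* encodes MCT1, which carries lactate and pyruvate together with a proton in either direction (ENSMUSG00000032902, chr3:104638668-104658462, plus strand). Wild type libraries held 50.6, 50.7 and 47.6 CPM, and YAP2-5SA-∆C libraries held 66.0, 80.8 and 80.8 CPM. The groups did not overlap, and the wild type libraries lay within a narrow band. The mean rose from 49.6 ± 1.77 to 75.9 ± 8.58 CPM (SD, n = 3 each), 1.53-fold (log2 fold change 0.61, standard error 0.09, quasi-likelihood FDR 0.0398 in edgeR). On leaving out any 1 of the wild type libraries or transgenic replicate 3, the FDR no longer passed and reached up to 0.178, while the log2 fold change stayed between 0.57 and 0.72.

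Markers of some cell types also differed between the groups, in either direction. Summed over 11 markers of basal and suprabasal keratinocytes, wild type libraries held 7456.7 to 8904.6 CPM and YAP2-5SA-∆C libraries 11020.7 to 16141.2 CPM. Of the 11, 4 lay wholly above wild type and 7 overlapped. *Krt14*, the keratin of the basal layer, went from between 1629.1 and 1668.4 CPM to between 2845.3 and 3406.8 CPM. It was the 1 marker of the 11 called (higher, as were 1.44% of all genes tested). *Krt10*, of the suprabasal layers, held 1668.0 to 2374.3 and 2163.5 to 4461.2 CPM. Summed over 9 markers of macrophages and neutrophils, the ranges were 486.5 to 577.4 and 730.1 to 810.1 CPM. All 9 lay wholly above the wild type libraries and 3 were called higher, against 15.5% and 1.44% of all genes tested. The most abundant were *Mrc1* (151.6 to 164.2 against 211 to 241.4 CPM) and *Lyz2* (116.3 to 149.2 against 184.9 to 207.8 CPM). The 13 markers of the hair shaft and inner root sheath, led by *Tchh* and *Krt71*, lay wholly below, as did 18.2% of all genes tested. Their sums were 13846.3 to 18260.1 against 1437.7 to 9220.4 CPM. Of these 13, 0 were called and 12 had an unadjusted quasi-likelihood p-value under 0.05 (26.3% of all genes tested). In biopsies of mixed cells a change in the number of cells of a type cannot be told apart from a change in RNA per cell, and the part of these markers in the values of *Slc2a1*, *Slc16a1* and the genes below was not tested.

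**Figure D2:**
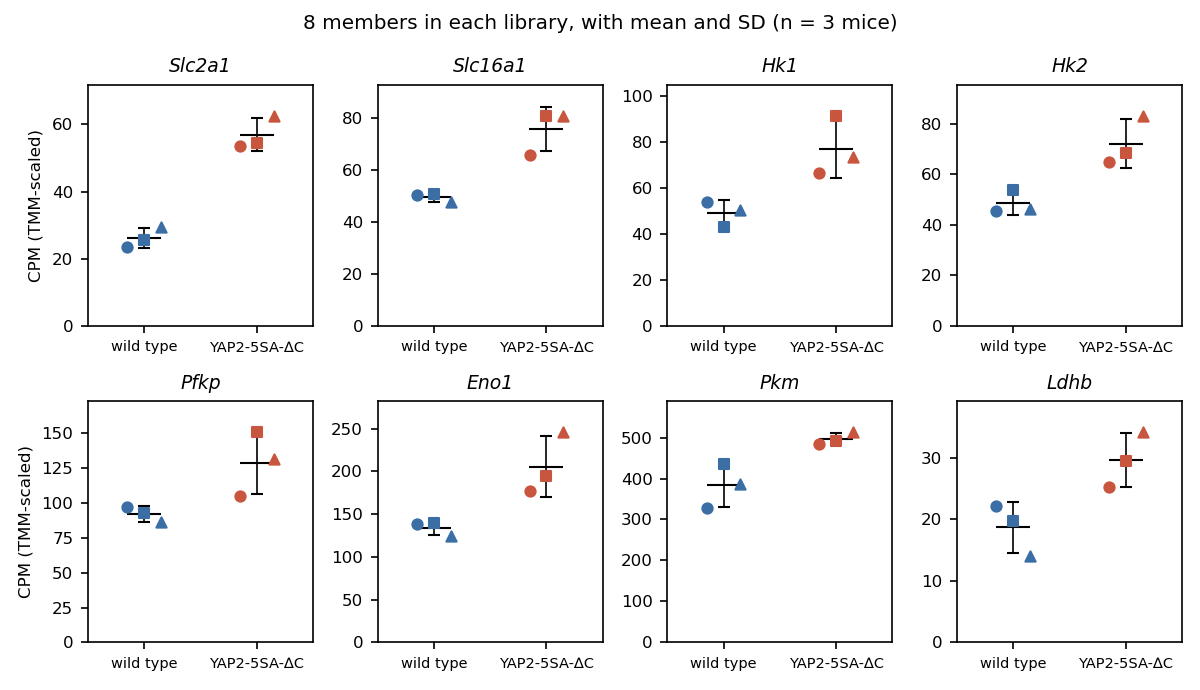
Each panel shows 1 gene in CPM on an axis that starts at 0, with 1 point per library (circles, squares and triangles, replicates 1, 2 and 3), a bar at the mean and an error bar of 1 SD (n = 3 mice). All 8 genes are among the 15 of the 34 that lay wholly above wild type, so separate groups follow from the choice of panels. Of all genes tested, 15.5% lay wholly above. Each panel has its own scale, and relative to its own level *Slc2a1* has the widest gap between the groups.

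The stretches upstream of the start sites are shown for the called carriers *Slc2a1* and *Slc16a1*, for *Hk2* and *Ldha*, which stand for the entry and the end of the pathway, and for the muscle isoform *Eno3*. They are RefSeq windows on GRCm38.p6, written from 5′ to 3′ on the strand of the gene and ending at the base before the RefSeq start, except that *Slc2a1* ends with its motif. The first exon that GENCODE gives *Slc2a1* begins inside that motif, so the last 3 capitals are exonic there. Capitals mark ACGTG in the first 4 stretches and GGAATG, the core bound by TEAD factors, in *Eno3*. ACGTG is a form of the core bound by HIF factors, read on either strand (so also as CACGT, and within the E-box CACGTG). The other form of that core, GCGTG, was not searched or marked. The positions are chr4:119108625-119108713 (plus strand), chr3:104638444-104638663 (plus), chr6:82774455-82774574 (minus), chr7:46845684-46845803 (plus) and chr11:70657056-70657175 (plus), in the order printed.
Slc2a1: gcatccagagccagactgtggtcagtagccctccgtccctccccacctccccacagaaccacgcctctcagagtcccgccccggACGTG
Slc16a1: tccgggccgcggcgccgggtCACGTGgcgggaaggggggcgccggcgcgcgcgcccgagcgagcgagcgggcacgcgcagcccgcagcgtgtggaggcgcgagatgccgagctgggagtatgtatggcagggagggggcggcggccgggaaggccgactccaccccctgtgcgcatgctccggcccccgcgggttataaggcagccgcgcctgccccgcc
Hk2: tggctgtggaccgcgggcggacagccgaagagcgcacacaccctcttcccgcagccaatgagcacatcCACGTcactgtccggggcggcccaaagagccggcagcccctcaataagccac
Ldha: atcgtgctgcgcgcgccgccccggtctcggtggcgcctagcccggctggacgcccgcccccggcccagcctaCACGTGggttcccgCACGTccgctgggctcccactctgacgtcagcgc
Eno3: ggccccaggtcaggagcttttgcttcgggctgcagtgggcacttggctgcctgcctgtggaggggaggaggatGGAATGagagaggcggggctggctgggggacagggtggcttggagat
Counted from the RefSeq start, the motif began at -36 in *Slc2a1*, at -52 in *Hk2* and at -47 in *Eno3*, in *Slc16a1* an E-box began at -200, and *Ldha* held an E-box at -48 and a further CACGT at -34. Not all copies are shown: beyond the printed stretches, the windows searched held a second E-box in *Ldha* and a second ACGTG on either strand in *Hk2*, both farther upstream, and a further ACGTG after the start in *Slc16a1*.

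Windows of 300 bases, 250 before the start and 50 after it, were held for 32 of the 34 genes, and not for *Slc2a3* and *Slc2a4*. ACGTG was found on either strand in 19 of the 32 genes (59.4%), against 21.8% of the 27025 genes with a window. The longer E-box CACGTG, each copy of which also counts as ACGTG, was in 7 of 32 (21.9%, against 8.09%). The member windows were richer in G and C than all windows, with medians of 59.0% and 52.7%, and a gene with several windows counted once if any held the letters. ACGTG was in 9 of the 15 genes whose transgenic libraries lay wholly above wild type and in 10 of the other 17. Among the genes higher in every YAP2-5SA-∆C library, *Gpi1*, *Pfkp*, *Pfkfb4*, *Eno1*, *Eno2* and *Ldhb* had no ACGTG in these windows. The other form of the HIF core, GCGTG, was not counted. GGAATG was in 7 of 32 (21.9%, against 16.6%), namely *Pgam2*, *Eno3*, *Aldoa*, *Aldoc*, *Eno1*, *Eno2* and *Pdk2*. CAGCTG, an E-box bound by myogenic factors, was in 9 of 32 (28.1%, against 18.3%), namely *Pgam2*, *Eno3*, *Aldoa*, *Gpi1*, *Pfkfb1*, *Pfkfb2*, *Pkm*, *Pdk1* and *Hif1a*, and not in the muscle isoform *Pfkm*. These matches describe the letters in the windows, and whether a factor binds there was not measured.

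Among the other glucose carriers of class I, *Slc2a3*, which encodes the high-affinity GLUT3, was low, with 8.41 to 8.75 CPM in wild type and 8.71 to 10.8 CPM in transgenic skin. Its groups overlapped (log2 fold change 0.16, standard error 0.11, FDR 0.402). Levels of different genes are compared here per kilobase of exon, for these carriers over the 3 listed, which are not the whole of class I. *Slc2a1* made up 51.5%, 41.3% and 50.6% of these 3 in the wild type libraries and 69.2%, 70.3% and 68.2% in the YAP2-5SA-∆C libraries. The insulin-responsive *Slc2a4* made up 39.5%, 51.9% and 42.1%, then 24.04%, 24.3% and 26.9%. The leading carrier of the 3 was thus *Slc2a1* in 5 of 6 libraries, and *Slc2a4* in wild type replicate 2. That replicate had the highest marker sums of both muscle and fat.

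**Figure D3:**
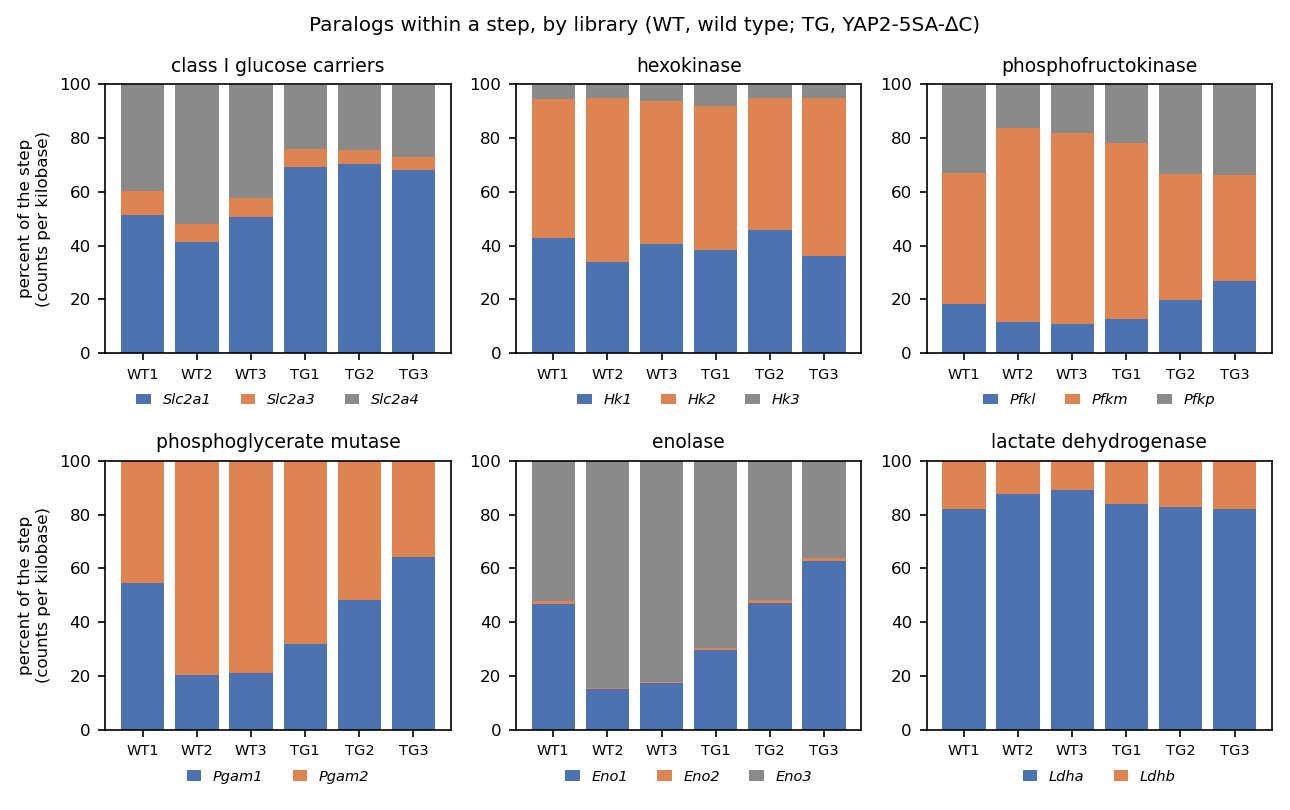
Stacked bars give each paralog as a percent of its step in each of the 6 libraries, from counts per kilobase of exon (WT, wild type; TG, YAP2-5SA-∆C). *Slc2a1* takes a larger part of the listed class I carriers in every TG library, and the hexokinases keep similar parts. The muscle isoforms *Pfkm*, *Pgam2* and *Eno3* vary within both groups.

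Hexokinases carry out the first step, and *Hk1*, *Hk2* and *Hk3* were each higher in every YAP2-5SA-∆C library, with FDRs just above the threshold. *Hk2*, the hexokinase linked to growth and insulin (ENSMUSG00000000628, chr6:82725025-82774454, minus strand), had 45.5, 53.9 and 46.2 CPM in wild type and 64.7, 68.5 and 83.1 CPM in transgenic skin. Its lowest transgenic library was above its highest wild type library, with a log2 fold change of 0.57 (standard error 0.11, FDR 0.053). *Hk1*, the form found in most tissues, had 53.8, 42.8 and 50.2 CPM against 66.2, 91.1 and 73.5 CPM, a log2 fold change of 0.65 (standard error 0.14, FDR 0.0564). *Hk3*, a form of myeloid cells, was the least abundant, with 2.86, 2.72 and 3.23 CPM against 6.01, 4.18 and 4.49 CPM (log2 fold change 0.74, standard error 0.18, FDR 0.0668). Since *Hk3* is a gene of myeloid cells, its values stand beside the macrophage and neutrophil markers above, which were also higher in all 3 libraries. The makeup of the step stayed similar, *Hk1* making up 39.1% ± 4.66 and 40.2% ± 5.04 (SD, n = 3 each) of hexokinase per kilobase and *Hk2* 55.4% ± 4.96 and 53.8% ± 4.67. Which of them leads depends on the exon length used: with the longest transcript in place of all exons, *Hk1* made up 53.98% in wild type and 55.05% in transgenic skin and *Hk2* 41.7% and 40.2%.

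In the upper part of the pathway, *Gpi1* and *Pfkp* lay wholly above wild type, *Pfkl* overlapped, and none of the 3 was called. *Gpi1*, glucose 6-phosphate isomerase, was 130.9 to 154.3 CPM in wild type and 157.6 to 173 CPM in transgenic skin (log2 fold change 0.20, FDR 0.164). Of the phosphofructokinases, which catalyse the committed step, the platelet form *Pfkp* had 97.5, 92.6 and 86.4 CPM against 105.1, 150.6 and 131.4 CPM. Its groups were separate, with a narrow gap below YAP2-5SA-∆C replicate 1 (log2 fold change 0.49, standard error 0.13, FDR 0.0773). Exons of *Pfkp* share 748 bases with *Pitrm1* on the opposite strand, and the strand setting of the counting is not stated in the sources used here. The liver form *Pfkl* overlapped, with 26.5 to 32.9 CPM against 30.4 to 52.0 CPM (log2 fold change 0.55, FDR 0.136).

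PFKFB enzymes make or remove fructose 2,6-bisphosphate, the activator of phosphofructokinase, and their 4 genes did not move together. *Pfkfb2* was the single gene of the 34 with every YAP2-5SA-∆C library below every wild type library, at 100.7, 102.2 and 96.8 CPM against 90.7, 89.1 and 83.1 CPM. The difference was small (log2 fold change -0.19, standard error 0.06, FDR 0.106). Exons of *Pfkfb2* share 154 bases with *Yod1* on the other strand and 1262 with *Gm29427* on the same strand. *Pfkfb4* was wholly above (18.5 to 21.9 against 23.5 to 25.1 CPM, log2 fold change 0.25, FDR 0.122). *Pfkfb3*, the form whose kinase most outweighs its phosphatase activity, overlapped (37.4 to 49.2 against 44.3 to 59.6 CPM, 0.29, FDR 0.23), as did *Pfkfb1* (0.05, FDR 0.869), whose sign changed without wild type replicate 1 or transgenic replicate 3. Per kilobase, *Pfkfb2* made up most of the group in wild type, 53.7% ± 3.06, and 46.3% ± 3.72 in transgenic skin (SD, n = 3 each).

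In the middle of the pathway, the abundant genes of aldolase, triose phosphate isomerase and GAPDH did not separate the groups. *Aldoa*, the aldolase of muscle and most other tissues, was the highest of the 34 genes per kilobase, with 287.4 ± 85.7 CPM per kilobase in wild type and 225.5 ± 25.9 in transgenic skin (SD, n = 3 each). Its CPM were 562.2, 1049.1 and 898.7 against 730.6, 579.8 and 658.4, so that wild type replicate 1 was the lowest library and wild type replicates 2 and 3 the highest (log2 fold change -0.35, FDR 0.35). *Tpi1* (139.3, 227.8 and 206.3 against 192.2, 199.8 and 199.1 CPM, log2 fold change 0.04) and *Gapdh* (252.3, 439.3 and 396.6 against 376.1, 336.5 and 362 CPM, log2 fold change -0.02) had the same lowest and highest libraries. These 3, the muscle isoform *Pfkm* and *Pdk2* were the 5 genes of the 34 with wild type replicate 1 lowest and wild type replicates 2 and 3 highest of the 6 libraries. The sum of the skeletal muscle markers given below was also highest in wild type replicates 2 and 3, followed by transgenic replicate 1, and was second lowest in wild type replicate 1, and its part in these values was not tested. *Gapdh* differed 1.74-fold among the wild type libraries, its sign changed under upper-quartile scaling, voom, the replicate block and on omitting wild type replicate 2 or 3 or transgenic replicate 2, and 70 of its near-identical copies were in the table with 6.01% of its counts. The minor aldolase *Aldoc*, a gene of brain and nerve, was at 7.26 to 8.06 against 8.23 to 9.67 CPM (log2 fold change 0.18, FDR 0.342).

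In the lower part, the genes of phosphoglycerate kinase, the non-muscle enolases and pyruvate kinase lay wholly above wild type. *Pgk1*, which yields the first ATP of the pathway, had 74.2, 107.3 and 93.9 CPM against 109.7, 115 and 126.3 CPM (log2 fold change 0.35, FDR 0.155). *Pgam1*, the mutase of non-muscle tissue, overlapped (33.8 to 38.8 against 37.5 to 46.9 CPM, 0.27, FDR 0.153). *Eno1*, the enolase of most tissues (ENSMUSG00000063524, chr4:150236721-150248879, plus strand), had 138.2, 139.6 and 124.8 CPM against 176.9, 194.6 and 245.5 CPM. The groups were clearly apart, with YAP2-5SA-∆C replicate 3 highest (log2 fold change 0.62, standard error 0.12, FDR 0.0532). The neuronal enolase *Eno2* was the lowest of all 34 genes per kilobase, with 2.28 to 3.02 against 3.68 to 4.24 CPM (log2 fold change 0.58, FDR 0.079). *Pkm*, pyruvate kinase of non-liver tissue, had 328.9, 435.9 and 386.3 CPM against 483.9, 492.7 and 512.3 CPM (log2 fold change 0.37, standard error 0.10, FDR 0.0868). The counts are per gene and do not separate its splice forms.

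At the branch to lactate, *Ldhb*, the heart form of lactate dehydrogenase, was wholly above and *Ldha*, the form that favours lactate, overlapped. *Ldhb* had 22.2, 19.8 and 14.1 CPM in wild type and 25.2, 29.5 and 34.1 CPM in transgenic skin (log2 fold change 0.66, standard error 0.18, FDR 0.084). *Ldha* had 213.9, 301.3 and 247.1 CPM against 276.1, 302.3 and 331.3 CPM (log2 fold change 0.25, standard error 0.13, FDR 0.266). Even so, *Ldha* was the main form in all 6 libraries, at 82.0% to 89.3% of lactate dehydrogenase per kilobase. *Slc16a3*, which encodes the lactate exporter MCT4, spread widely within wild type skin, with 5.22, 12.9 and 13.1 CPM against 14.7, 11.1 and 14.6 CPM (log2 fold change 0.38, standard error 0.33, FDR 0.501). Of *Slc16a1* and *Slc16a3* together, *Slc16a1* made up 81.3% to 92.1% per kilobase. *Slc16a7*, which encodes the lactate and pyruvate carrier MCT2 and is named here after its values were seen, was wholly below wild type, with 52.2, 55.9 and 58.3 CPM against 50.1, 26.8 and 41.9 CPM (log2 fold change -0.49, FDR 0.191). With *Slc16a7* counted in, *Slc16a1* made up 67.9%, 61.6% and 59.2% of the 3 carriers in wild type and 68.0%, 80.8% and 74.4% in transgenic skin, narrowly apart at wild type replicate 1 and transgenic replicate 1.

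The pyruvate dehydrogenase kinases, which hold pyruvate back from the mitochondria, showed no separation for any of the 4 genes. *Pdk1*, a target of HIF-1, had 51.3 to 55.5 CPM against 49.1 to 55.2 CPM (log2 fold change -0.02, standard error 0.07, FDR 0.895), the tightest estimate among the 4. *Pdk2* was at -0.19 (standard error 0.20), *Pdk3* at -0.11 (0.08) and *Pdk4*, the kinase of fasting, at 0.12 (0.36) on the log2 scale, with FDRs of 0.588, 0.386 and 0.859. *Pdk3* led the group per kilobase, at 43.1% ± 4.32 in wild type and 41.2% ± 3.77 in transgenic skin (SD, n = 3 each). *Hif1a*, the oxygen-regulated subunit of HIF-1, which is controlled mainly through its protein, had 187.2, 192.1 and 189.1 CPM against 210.8, 197.4 and 227.7 CPM. Its groups were separate by a small gap, and the difference was slight (log2 fold change 0.16, standard error 0.07, FDR 0.179).

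Of the 15 genes that lay wholly above wild type, YAP2-5SA-∆C replicate 3 was the highest library for 9, replicate 2 for 5 and replicate 1 for 1. Wild type replicate 1 was the lowest of its group for 25 of the 34 genes, among them all 4 muscle isoforms. The markers of stressed keratinocytes had their highest sum in YAP2-5SA-∆C replicate 3 as well. The sums were 2190.5, 1342.2 and 2535.4 CPM in the 3 YAP2-5SA-∆C libraries against 1221.4 to 1624.4 CPM in wild type. Of the 7 markers, 3 were called higher (1.44% of all genes tested). The most abundant of the 7, *Krt17* and *Krt6a*, differed in opposite directions without passing the threshold. They had 961.7 to 1213.3 against 474.9 to 870.2 CPM and 152.2 to 260.7 against 262.2 to 642.1 CPM.

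The 4 muscle isoforms were lower on average in transgenic skin, but each overlapped between the groups, and 3 of them ranked the libraries much as the muscle markers did. *Eno3*, the enolase of muscle (ENSMUSG00000060600, chr11:70657202-70662513, plus strand), had 49.9, 248.9 and 191.7 CPM in wild type and 134.3, 69.1 and 45.7 CPM in transgenic skin. Wild type replicate 1 was nearly as low as the lowest transgenic library, and the log2 fold change of -0.98 had a standard error of 0.60 (FDR 0.344). *Pgam2*, the mutase of muscle, had 11.98, 64.2 and 53.7 CPM against 34.04, 19.9 and 11.1 CPM (log2 fold change -0.99, standard error 0.63, FDR 0.353). *Pfkm* had 36.1, 101.5 and 85.4 CPM against 78.0, 53.2 and 38.7 CPM (log2 fold change -0.39, standard error 0.40, FDR 0.566). None of the 4 passed the quasi-likelihood test, the likelihood-ratio test, voom or DESeq2, and 0 of 4 had an unadjusted p-value under 0.05 in the quasi-likelihood test.

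Summed over 20 markers of skeletal muscle, led by *Ttn* and *Myh4*, the libraries held 4846.1, 21832.8 and 18112.8 CPM in wild type and 11671.1, 8419.4 and 4821.3 CPM in transgenic skin. The sum differed 4.5-fold among the wild type libraries alone, 0 of the 20 markers were called (0 with an unadjusted p-value under 0.05), and their median log2 fold change was -1.09. *Eno3* and *Pgam2* ranked the 6 libraries in exactly the order of this sum, and *Pfkm* in that order but for transgenic replicate 3 and wild type replicate 1, the 2 lowest. All 6 points share the libraries and their scaling, so these orders are a description. *Slc2a4* stood apart, with 17.9, 31.8 and 24.4 CPM against 18.5, 18.7 and 24.5 CPM (log2 fold change -0.27, standard error 0.22, FDR 0.469). Its YAP2-5SA-∆C replicate 3 was as high as wild type replicate 3 although its muscle sum was the lowest. Fat, where *Slc2a4* is also used, gave marker sums of 1817.8, 2693 and 2385.7 CPM in wild type and 1712.3, 2131.4 and 2471.6 CPM in transgenic skin over 10 markers led by *Car3* and *Fabp4*, with 0 of 10 called and 0 with an unadjusted p-value under 0.05.

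**Figure D4:**
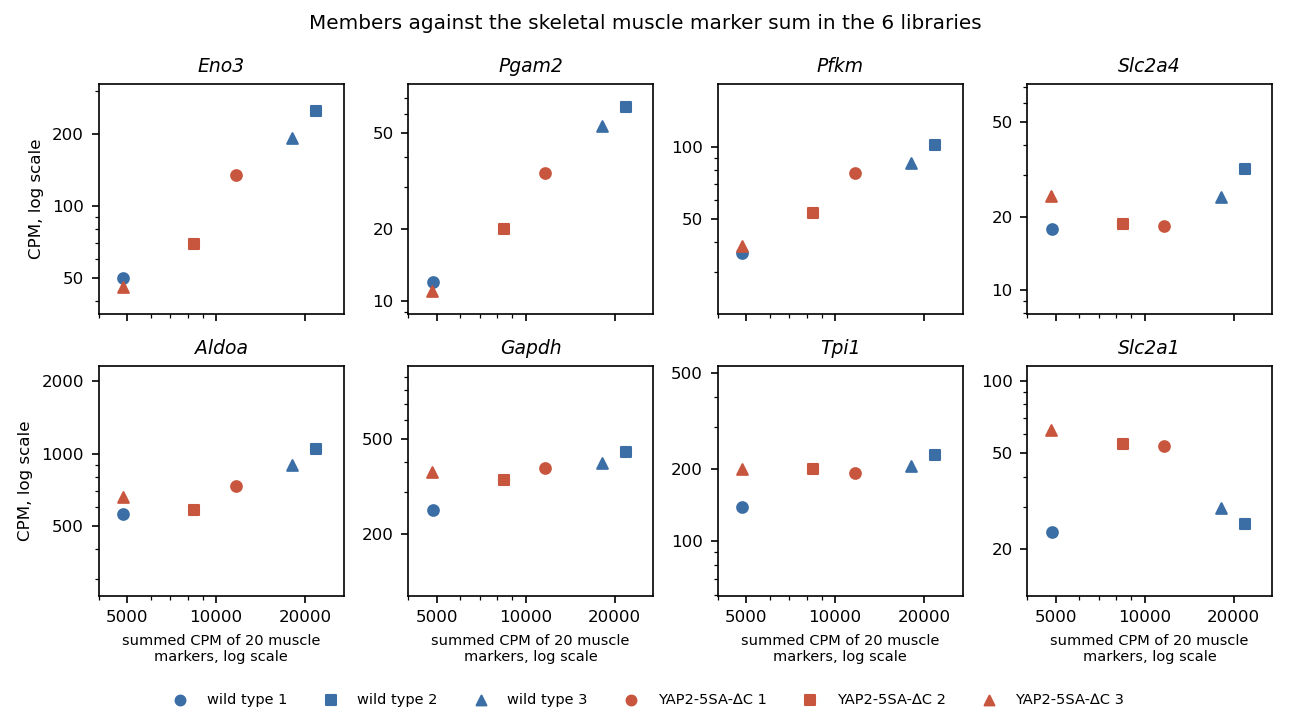
Each panel plots the CPM of 1 gene (vertical, log scale) against the summed CPM of 20 skeletal muscle markers (horizontal, log scale) in the 6 libraries (blue, wild type; red, YAP2-5SA-∆C). *Eno3*, *Pgam2* and *Pfkm* climb with the sum across both groups. In the panel of *Slc2a1* the 3 red points lie above the 3 blue ones, and wild type replicates 2 and 3 have sums beyond those of the red points.

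In the steps with a muscle isoform, the makeup differed widely among libraries. Per kilobase of exon, *Eno3* made up 52.2%, 84.4% and 82.3% of enolase in wild type and 69.6%, 51.7% and 36.2% in transgenic skin, the rest being almost wholly *Eno1*. *Pgam2* made up 45.6%, 79.6% and 78.9%, then 68.2%, 51.7% and 35.7%, of phosphoglycerate mutase. *Pfkm* made up 48.7%, 71.98% and 71.1%, then 65.3%, 47.1% and 39.7%, of phosphofructokinase. In all 3 steps the groups overlapped, and YAP2-5SA-∆C replicate 3 had the smallest muscle part. The shares depend on the exon length used: with the longest transcript in place of all exons, the mean share of *Eno1* was 43.6% in wild type and 65.9% in transgenic skin in place of 26.4% and 46.5%.

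Neighbouring pathways were read from lists of genes chosen by role. In the 115 tested genes of 8 lists, 1 was called higher and 1 lower. Over all genes tested, 1.44% were called higher and 0.464% lower, so these lists are not set apart by their number of calls. The other carriers of glucose, pyruvate and lactate had a median log2 fold change of 0.35, with 11 of 13 tested genes positive and 1 called. This was *Emb*, embigin, a membrane partner of monocarboxylate carriers (ENSMUSG00000021728, chr13:117208536-117274415). It had 54.4, 42.8 and 46.3 CPM in wild type and 74.2, 84.1 and 89.6 CPM in transgenic skin, and rose by 0.79 on the log2 scale (standard error 0.11, quasi-likelihood FDR 0.0375 in edgeR). The call was lost on omitting wild type replicate 2 or 3 or transgenic replicate 3. The partner used by *Slc16a1* in most tissues, *Bsg* (basigin), named here after its values were seen, was level, with a log2 fold change of -0.08 (FDR 0.538).

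**Figure D5:**
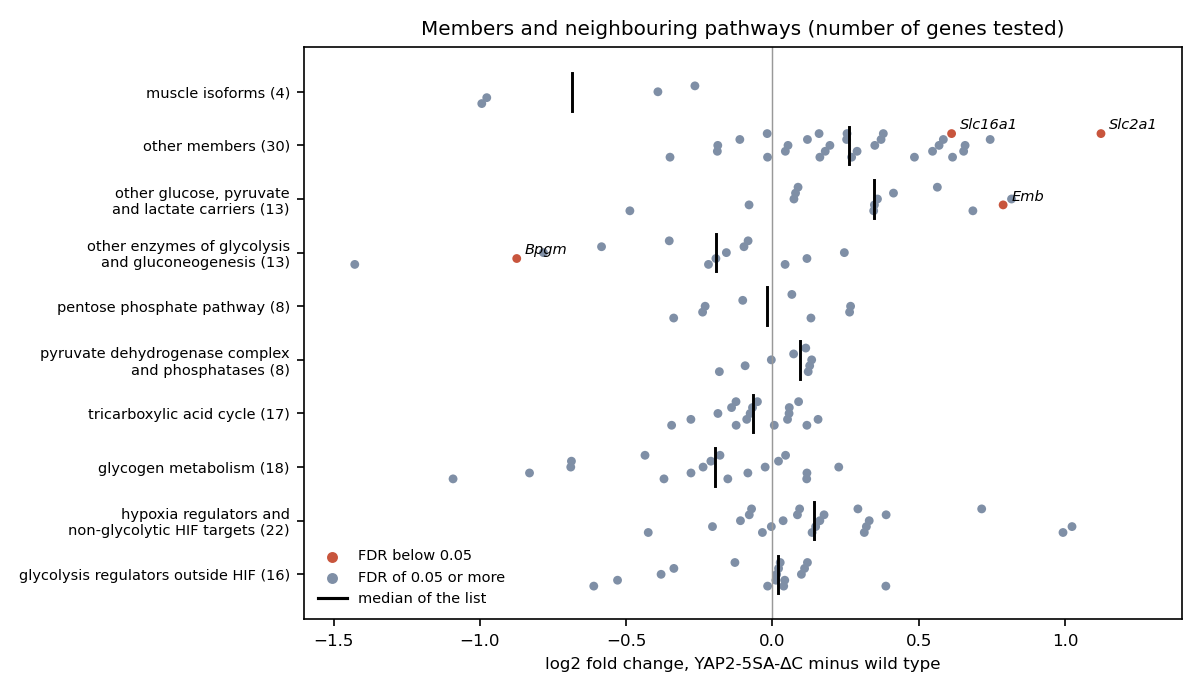
Each point is 1 tested gene at its log2 fold change (YAP2-5SA-∆C minus wild type), by list, with a black line at the median of the list and red points for an FDR below 0.05. The 4 red points are *Slc2a1*, *Slc16a1* and *Emb* on the right and *Bpgm* on the left.

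The list of other enzymes of glycolysis and its side branches, which also holds 5 tested enzymes of gluconeogenesis (*Fbp1*, *Fbp2*, *Pck1*, *Pck2* and *G6pc3*), had a median of -0.19, with 10 of 13 tested genes negative. Of the 5 gluconeogenic genes 4 were negative, and of the other 8 genes 6, with medians of -0.19 in each. The called gene was *Bpgm*, which turns an intermediate of glycolysis into 2,3-bisphosphoglycerate, the regulator of haemoglobin (ENSMUSG00000038871, chr6:34476207-34505613). It fell from 30.3, 34.5 and 36.1 CPM to 19.5, 14.5 and 21.03 CPM, a log2 fold change of -0.87 (standard error 0.15, quasi-likelihood FDR 0.0437 in edgeR), and passed in 1 of the 6 fits that leave out a library, the one without transgenic replicate 2. That replicate was the lowest for *Bpgm* and also had the lowest hair marker sum. The likelihood-ratio test and DESeq2 also called *Minpp1* (-0.58) and *Pgm2* (-0.78), and the likelihood-ratio test the gluconeogenic *Fbp1* (-1.43), each lying wholly below wild type, with log2 fold changes in parentheses and quasi-likelihood FDRs of 0.0505, 0.0869 and 0.116. These 3 genes, and *Ankrd37* below, were named after their values were seen. The other 8 genes of this list of 21 did not pass the count filter, among them the liver and testis forms.

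No gene was called in the remaining 6 lists by the quasi-likelihood test. In the pentose phosphate pathway, which branches off at glucose 6-phosphate, the 2 lowest p-values went in different directions, with *G6pdx*, the enzyme of entry, at -0.34 (FDR 0.0769) and *H6pd* at 0.27 (FDR 0.112) on the log2 scale. Its median was -0.02, and 4 of 8 genes had an unadjusted p-value under 0.05 (26.3% of all genes tested), of which DESeq2 called *G6pdx*. The pyruvate dehydrogenase complex had a median of 0.09 with 0 of 8 under that value (*Pdpr* 0.12, *Pdp1* 0.11), and the tricarboxylic acid cycle a median of -0.07 with 1 of 17, *Sdhb*, at -0.34 (FDR 0.169), followed by *Ogdh* at 0.16 (FDR 0.213). The likelihood-ratio test, voom and DESeq2 called none in either list.

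In glycogen metabolism the median was -0.19, with 13 of 18 genes negative and 2 with an unadjusted p-value under 0.05 (26.3% of all genes tested). In 7 of the 18, all 7 negative, the 3 highest libraries were those of the skeletal muscle marker sum in the same order, among them *Pygm*, glycogen phosphorylase of muscle, with 44.5, 192.8 and 174.8 CPM against 111.8, 71.9 and 47.9 CPM (log2 fold change -0.83, FDR 0.364). *Pygm* was named after its values were seen, and the part of muscle content in the list was not tested. *Ppp1r3c*, which targets a phosphatase to glycogen, had 17.6, 39.0 and 30.1 CPM against 15.2, 10.7 and 14.8 CPM, wholly below (log2 fold change -1.09, FDR 0.0768), and was called by the likelihood-ratio test and DESeq2. *Pygb*, glycogen phosphorylase of brain, was at 0.23 (FDR 0.14). Among hypoxia regulators and HIF targets outside glycolysis, the median was 0.14 and 6 of 22 had an unadjusted p-value under 0.05, a share near the 26.3% of all genes tested. *Egln3*, a HIF prolyl hydroxylase that is itself induced by HIF, had 23.3, 25.1 and 27.4 CPM in wild type and 35.4, 50.8 and 68.0 CPM in transgenic skin, wholly above (log2 fold change 1.02, standard error 0.22, FDR 0.0582). *Epas1*, which encodes HIF-2α, was at 0.33 (FDR 0.0641). Of the regulators outside the HIF pathway, with a median of 0.02 and 2 of 16 under that p-value (26.3% of all genes tested), *Mycn* was at -0.61 (FDR 0.0612) and *Mef2a* at 0.39 (FDR 0.1). The likelihood-ratio test and DESeq2 called *Egln3* and *Mycn*, DESeq2 also *Epas1* and *Mef2a*, and the likelihood-ratio test also *Ankrd37*, at 0.99 on the log2 scale.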

How the data were processed

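Each of the 6 libraries is 1 column of the raw counts that the authors deposited per gene. Per the labels and the study's methods, paired reads were aligned to GRCm38 (TopHat2 2.0.12 and Bowtie2 2.1.0 in the submitters' processing notes), and HTSeq-count kept the uniquely mapped ones. The strand setting and annotation release are not given in the sources used here, so overlapping genes and near-identical copies are uncertain. After the CPM filter (1 CPM, 3 libraries), counts were scaled with TMM and tested in R 4.3.3 with edgeR 4.0.16 (glmQLFit, glmQLFTest, genotype as the only term), with Benjamini-Hochberg adjustment and a threshold of 0.05. The standard error was the log2 fold change over the square root of F. Voom (limma 3.58.1), DESeq2 1.42.0, other scalings and filters, a block for replicate number and fits that each omit 1 library were alternatives. The scripts were tested on simulated data. Names, positions and exon lengths came from GENCODE M21, in which 558 of 26579 identifiers are absent, and promoters from RefSeq (GRCm38.p6). The members and lists were chosen with earlier results of these data known. All members were named, with the called genes of each related list or the 2 with the lowest p-value, and the 2 most abundant markers per list. The result of 1 marker list is not reported here. Proteins, glucose and lactate were not analysed here.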

Additional observations from a re-analysis of the deposited data

How the results depend on the processing

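The call of *Slc2a1* and *Slc16a1* held in 8 of the 9 settings that kept all libraries and was lost with the replicate block. Across those settings no member changed from higher to lower or back, except *Gapdh* (0.0031 with upper-quartile scaling, 0.020 with voom, 0.018 with the block) and *Pdk1* (0.0051 with upper-quartile scaling) on the log2 scale. The number of members called was 2, and it was 4 with upper-quartile scaling, 5 without a low-count filter, 8 with the likelihood-ratio test, 9 with DESeq2 and 0 with the replicate block. The number of genes called in the related lists was 2, and it was 4, 9, 10 and 0 without a filter, with the likelihood-ratio test, with DESeq2 and with the block. Over all genes the 288 calls became 416 with upper-quartile scaling, and 497, 1568, 1590 and 0 without a filter, with the likelihood-ratio test, with DESeq2 and with the block. No pairing of the mice by replicate number is given in the sources used here. The deviations of same-numbered libraries from their group means correlated at -0.33, -0.23 and -0.05, and no wild type library correlated best with its own number. With only 3 libraries per group, these values cannot settle whether same-numbered mice were paired. Under the block 2949 genes, 17 members and 24 related genes still had an unadjusted p-value under 0.05. With each library left out in turn, calls ranged from 0 to 816 over all genes, from 0 to 6 over the members and from 0 to 4 over the related lists. The 0 over the members arose without wild type replicate 2, wild type replicate 3 and YAP2-5SA-∆C replicate 3 (17, 13 and 11 members under an unadjusted p-value of 0.05), and the 6 without YAP2-5SA-∆C replicate 2. The cause of these shifts was not tested. In the same fits *Gapdh* ranged from -0.22 to 0.14, *Tpi1* from -0.13 to 0.19, *Pdk1* from -0.052 to 0.045, *Pdk4* from -0.17 to 0.40 and *Pfkfb1* from -0.078 to 0.21 on the log2 scale, changing sign, and the other 29 members kept theirs. The median of the 30 other members stayed between 0.18 and 0.37 over all settings and that of the 4 muscle isoforms, -0.68, between -1.07, on omitting transgenic replicate 1, and -0.32, on omitting wild type replicate 2, with -1.06 when wild type replicate 1 was omitted. Adding near-identical copies left both calls in place. With the longest transcript in place of all exons, 20 of 56 mean paralog shares moved by more than 1 SD.

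The standard errors were widest for *Pgam2* (0.63) and *Eno3* (0.60), which spread most between libraries.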
